A study of Mus musculus with 32 samples.

Results

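The genes described here encode the machinery that brings nuclear-encoded proteins into mitochondria and folds them there: the translocases of the outer and inner membrane (TOM, TIM22 and TIM23), the small TIM chaperones between the membranes, the sorting and assembly machinery (SAM), the import motor, the processing peptidase, the disulfide relay and the Hsp60 and Hsp10 chaperonin. There are 36 of them among the 23517 genes of the count table, and 36 of 36 were found in it by symbol. The set was named by function but was chosen from a re-analysis in which changes with bethanechol (Bch) were already known, so the Bch changes of these genes are given as descriptions and the tests beside them support no choice of genes. Bch is an agonist of muscarinic acetylcholine receptors.

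RNA was measured in bulk in sorted Lgr5-EGFP+ cells of colonoids, which are epithelial organoids grown from colonic crypts. The mice carried Lgr5-EGFP-IRES-CreERT2, in which the Lgr5 locus drives EGFP and a tamoxifen-inducible Cre, and crypts of their proximal colon were grown in Matrigel with L-WRN medium. Each of 8 mice gave an untreated culture and a culture that received fresh 250 nM Bch daily for 4 days, so every group carried the same reporter allele and medium. Mice BR1, BR2, BR3 and BR4 were labelled male, their material was labelled sorted Lgr5+ cells, and their RNA was extracted with the RNeasy Plus Micro kit. The labels of mice BR7, BR8, BR9 and BR10 carry no sex, name the material colonic organoids and give the RNeasy Mini kit, so their sex was read from the design text, which lists 4 female and 4 male animals. Sex, extraction kit and labelled material therefore cannot be told apart between the 2 sets of mice. In bulk RNA, fewer cells of a type and less RNA per cell cannot be told apart either.

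Most mitochondrial proteins are made in the cytosol and cross the outer membrane through the TOM complex. Precursors with a presequence then pass the TIM23 complex and are pulled into the matrix by the Hsp70 motor, whereas carrier proteins and other hydrophobic precursors are escorted by small TIM chaperones to TIM22 and barrel proteins to SAM. In the intestinal crypt, mitochondrial activity and the Hsp60 chaperonin are known for their part in stem cell maintenance.

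The 2 technical replicates of each mouse and treatment were summed, which gave 16 sums of 557512 to 4050342 unique molecular identifiers (UMIs), and each mouse counts once. The members held between 0.711% and 0.842% of all UMIs of a sum. Levels are given as UMIs per 1e+06 UMIs of the sum (CPM). A UMI stands for 1 RNA primed at its poly(A) tail whatever its length, so that CPM are on a per-molecule scale and were not divided by transcript length. Lgr5 itself was low, between 12.4 and 38.6 CPM in the 8 untreated sums. Between technical replicates 1 and 2, the shares of UMIs differed more than 2-fold for 101 of 8861 genes that had 200 UMIs or more, and 36 of the 72 that were higher in replicate 2 were ribosomal protein genes. Among the members this touched Pam16, with 336 UMIs in replicate 1 and 1421 in replicate 2, a share 3.85-fold higher in the latter. The 3′ end of Pam16 shares 97.5% of its 65-base stretches with Gm9803, and for Timm23 this share was 94.3%, for Tomm6 78.7%, for Hspe1 43.1% and for Dnajc19 37.8%, so that the counts of these 5 genes are uncertain.

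In untreated cells the import genes spanned from 6.85 CPM for Tomm6 to 948 CPM for Tomm7, as medians of 8 mice. Of the 36 genes, 34 lay above the median of 19.4 CPM of all 10280 genes tested, and the other two were Timm8a1 with 18.2 CPM and Tomm6. Tomm7, which regulates TOM assembly, was followed by the small TIM chaperone Timm13 with 785 CPM and by Hspe1 (Hsp10), the lid of the Hsp60 chamber, with 762 CPM. The nucleotide exchange factor Grpel1 had 473 CPM and was far above Hspa9, the mitochondrial Hsp70 that it serves, with 162 CPM. The channel of the outer membrane, Tomm40, had 338 CPM. Timm23, the channel of the inner membrane, had 43.2 CPM, a level that is uncertain because of its shared 3′ end. Neighbours in this order mostly overlapped. In 2 of 35 neighbouring pairs the 8 untreated mice did not overlap, namely Hspe1 above Grpel1 and Timm8a1 above Tomm6. The counts of Hspe1 and Tomm6 are also uncertain because of shared 3′ ends.

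**Figure D1:**
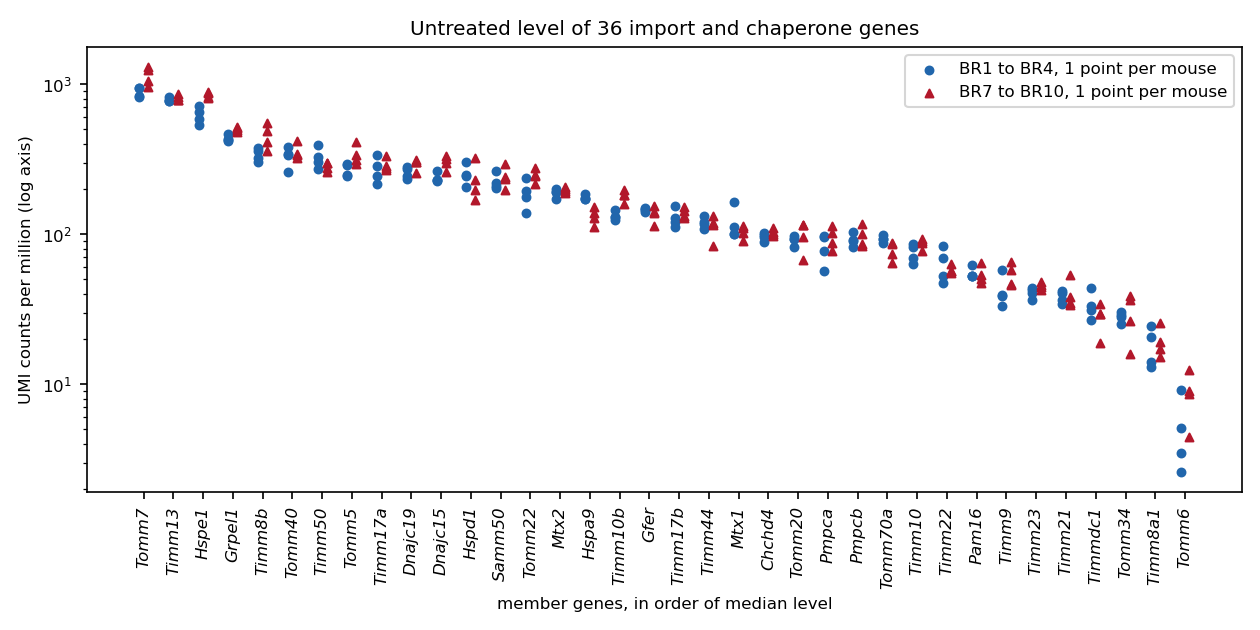
Untreated level of the 36 genes in CPM on a log axis, ordered by the median of 8 mice, with circles for BR1 to BR4 and triangles for BR7 to BR10. Levels run from Tomm7 with a median of 948 CPM down to Tomm6 with 6.85 CPM, and the triangles of Tomm7, Hspe1, Grpel1 and Timm10b lie above all circles of the same gene, while those of Hspa9 lie below.

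With Bch the members took a smaller share of all UMIs in 7 of 8 mice. The share went from 0.789% to 0.739% in mouse BR7, from 0.763% to 0.739% in BR8, from 0.842% to 0.776% in BR9 and from 0.83% to 0.817% in BR10. It went from 0.777% to 0.716% in BR1, from 0.750% to 0.711% in BR2, from 0.775% to 0.713% in BR3 and from 0.719% to 0.723% in BR4. Sorted cells numbered 13114 untreated and 3504 with Bch in BR1, 2361 and 3000 in BR3, and 2401 and 3000 in BR9. All other cultures gave 3000 cells, and the part of cell number in the shares was not tested. The share is a sum in which the most abundant members weigh most, and it did not go with the members one by one in each mouse. In BR1 and in BR2, where the share was smaller, 20 of 36 members were higher with Bch, and the median log2 ratio of the members was 0.02 in BR1 and 0.04 in BR2, against 0.01 over all genes in both. In BR4, where the share was larger, 20 of 36 members were lower. After scaling between libraries, the median log2 change of the members over 8 mice was -0.04, against 0.01 over all genes tested.

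In the BR7-BR10 mice, 28 of 36 members had a log2 change below 0, against 50.5% of all 9515 genes tested, and the median of the members was -0.09 against -0.00. No member passed an adjusted p of 0.05 in edgeR's quasi-likelihood test, 0% of all genes did, and DESeq2 called 0 members and 0% of all genes as well. At an unadjusted p under 0.05 there were 3 members, Timm9, Timm10 and Mtx2, where 3.78% of all genes had such a p. All 3 were lower with Bch, as were 1.3% of all genes at this p, and they were also the 3 members that were lower in 4 of 4 mice, a pattern that 5.5% of all genes showed. No member was higher in 4 of 4 mice, where 6% of all genes were. The treated and untreated groups did not overlap for 2 members, Timm9 and Mtx2, against 2.15% of all genes.

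In the BR1-BR4 mice the members lay on both sides of 0. Of 35 members tested, 19 were below 0, against 49.7% of all 9509 genes, with a median of -0.04 against 0.00. Tomm6 was too low to be tested. No member passed in edgeR, where 0.021% of all genes did, none had an unadjusted p under 0.05, where 7.72% of all genes did. DESeq2 called 15 (0.158%) of all genes and 0 members, but its own filter left an adjusted p for 476 genes and for 4 of the 35 members, Grpel1, Hspe1, Timm13 and Tomm7, so that it gave no call on the other 31. Timm13, Timm17a, Tomm5, Tomm7 and Chchd4 were lower in 4 of 4 mice, against 6.85% of all genes, and Timm10, Tomm20 and Pmpcb were higher in 4 of 4, against 8.32%. The treated and untreated groups did not overlap for 1 member, Timm13, against 2.85% of all genes. The distance between the median of the members and that of all genes, -0.04 here, was -0.01 without BR2 or BR3, -0.02 without BR4 or with technical replicate 2 alone, and -0.07 with no filter on low counts.

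Over all 8 mice in 1 fit, 29 of 36 members were below 0, against 48.6% of all 10280 genes. None passed in edgeR or DESeq2, where 0% of all genes did in each, and none had an unadjusted p under 0.05, where 5.4% of all genes did. The 3 members with the smallest p were Chchd4, Tomm70a and Pmpca, each with an adjusted p of 0.906 in edgeR. When the change was compared between the sets, the difference, BR7-BR10 minus BR1-BR4, was below 0 for 21 of 36 members, against 50.2% of all genes. None passed in edgeR or DESeq2, as for 0% of all genes in each. The 4 members with an unadjusted p under 0.05, against 4.39% of all genes, were Timm10, Mtx2, Timm9 and Pmpcb, and all 4 differences were below 0, as for 1.97% of all genes.

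**Figure D2:**
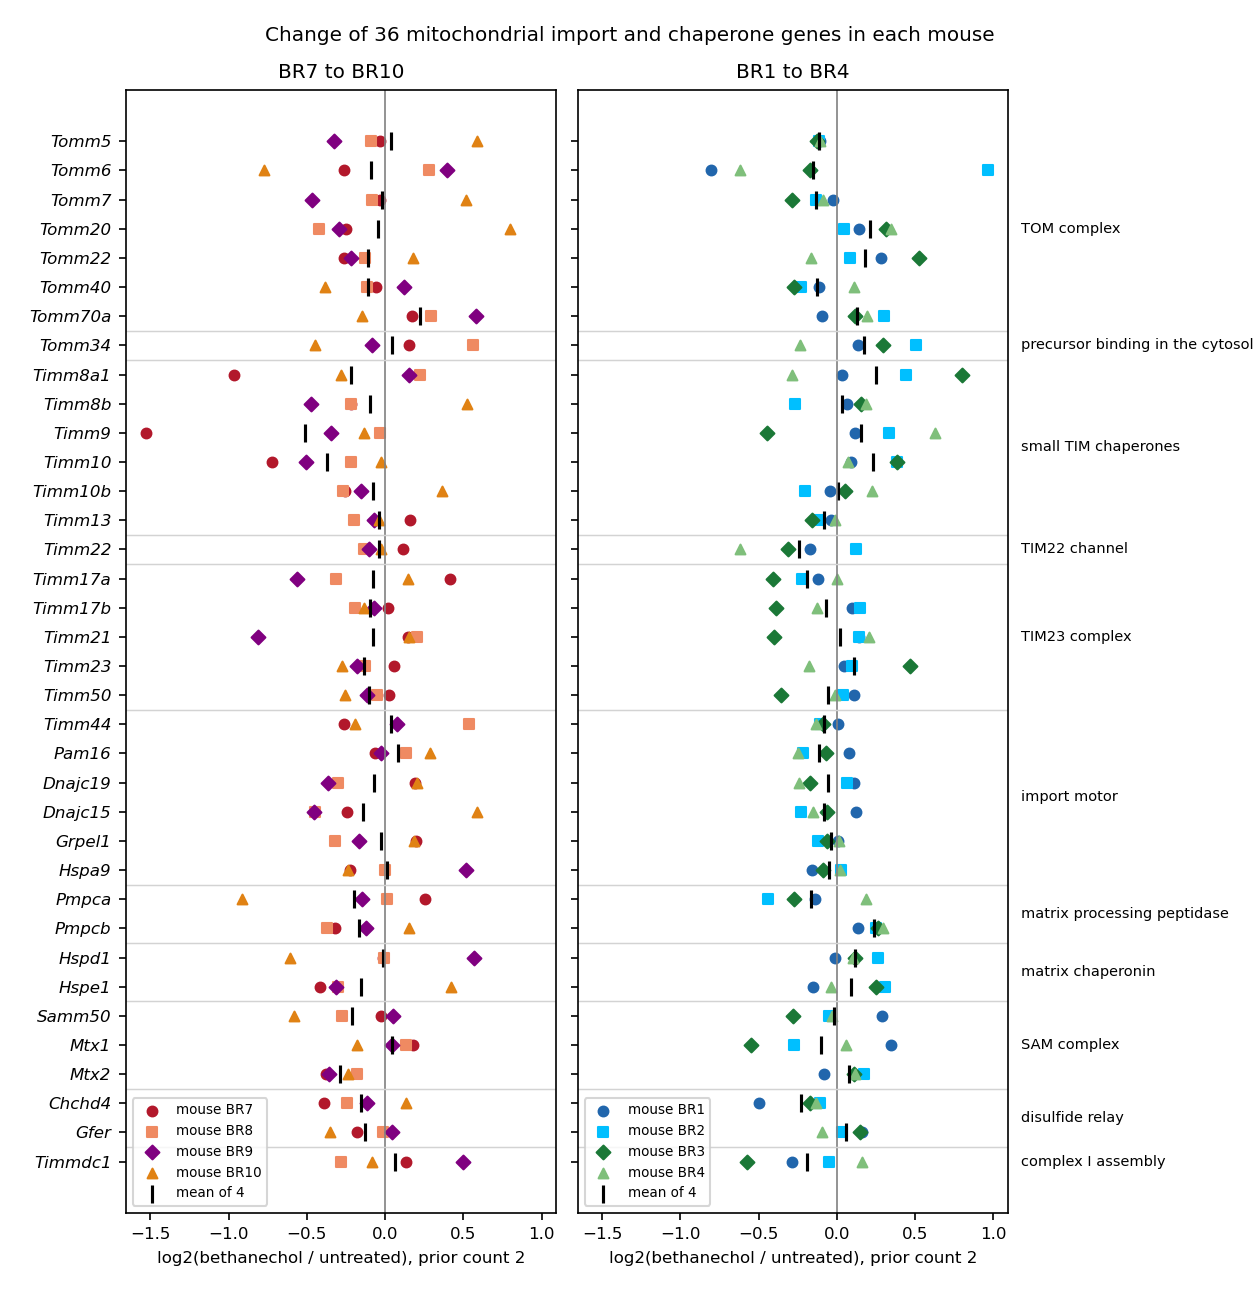
log2 ratio of Bch over untreated (prior count 2) of each member in each mouse, BR7 to BR10 on the left and BR1 to BR4 on the right, grouped by role, with 1 symbol per mouse and a bar for the mean of 4. Timm9, Timm10 and Mtx2 lie left of 0 in all 4 mice of BR7 to BR10, and the triangle of BR10 lies apart on the right for Tomm20 with 0.80 and for Hspe1 with 0.42.

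The receptors and pore of the outer membrane showed no common direction. Tomm20, the presequence receptor (chr8:126930667-126945844, minus strand), had 115, 115, 95.8 and 67.1 CPM in the untreated cells of BR7, BR8, BR9 and BR10 and 96.3, 85.7, 77.8 and 117 CPM with Bch. In BR1, BR2, BR3 and BR4 it had 81.7, 92.2, 92.6 and 98.0 CPM untreated and 90.2, 95.3, 115 and 125 CPM with Bch. Tomm20 was thus lower in 3 mice of the first set and higher in BR10, whereas it was higher in all 4 mice of the other set, with log2 changes of -0.03 ± 0.17 (SE) and 0.21 ± 0.12 and adjusted p-values of 0.999 and 0.751 in edgeR. The receptor Tomm70a, which takes up carrier precursors, was the member with the largest upward change in BR7-BR10. It had 74.3, 87.8, 63.9 and 85.9 CPM in untreated BR7, BR8, BR9 and BR10 and 83.7, 108, 96.2 and 77.6 CPM with Bch. Untreated BR1, BR2, BR3 and BR4 had 98.5, 87.0, 92.6 and 92.9 CPM, and the Bch cultures had 92.1, 107, 100.5 and 106 CPM. It was higher in 3 of 4 mice of either set, with a log2 change over 8 mice of 0.18 ± 0.10 (SE).

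Tomm40, the pore itself (chr7:19701313-19715438, minus strand), was the most abundant of the larger TOM subunits. Its levels were 322, 335, 343 and 415 CPM untreated and 309, 309, 372 and 318 CPM with Bch in BR7 to BR10. They were 379, 335, 341 and 258 CPM untreated and 350.2, 285, 281 and 278 CPM with Bch in BR1 to BR4. Tomm40 was lower with Bch in 3 mice of either set, and the treated and untreated groups overlapped. Of the small subunits, Tomm5 and Tomm7 were lower in all 4 BR1-BR4 mice, with log2 changes of -0.11 ± 0.09 and -0.13 ± 0.09 (SE). In BR7-BR10 both were lower in 3 mice and higher in BR10, by 0.59 and 0.51 on the log2 scale. Tomm6 was between 2.62 and 12.4 CPM in untreated cells, where 3 UMIs of the shallowest sum are worth 5.38 CPM, so no change of it could be read at this depth. Its level is also uncertain because of its shared 3′ end. Tomm22, the central receptor, had log2 changes of -0.10 ± 0.13 (SE) and 0.15 ± 0.10 in the 2 sets, and Tomm34, a cytosolic partner of precursors and Hsp90, had 0.00 ± 0.22 and 0.17 ± 0.21.

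The small TIM chaperones of the intermembrane space had mostly opposite signs in the 2 sets. All 6 were below 0 in BR7-BR10, with a median log2 change of -0.12, and 5 of 6 were above 0 in BR1-BR4, with a median of 0.10, while Timm13 was below 0 in both. Timm9 and Timm10 form the hexamer that carries hydrophobic precursors to TIM22. These partners had the same sign in 7 of 8 mice. The stretches upstream of both genes are shown as a description of sequence, and their part in the changes was not tested. Capitals mark the E-box CACGTG in Timm9 and the ETS core CCGGAAG, read here on the other strand, in Timm10.

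Timm9: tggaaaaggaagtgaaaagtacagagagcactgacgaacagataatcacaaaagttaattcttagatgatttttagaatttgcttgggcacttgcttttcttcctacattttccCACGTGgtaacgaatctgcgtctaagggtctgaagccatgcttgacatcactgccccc
Timm10: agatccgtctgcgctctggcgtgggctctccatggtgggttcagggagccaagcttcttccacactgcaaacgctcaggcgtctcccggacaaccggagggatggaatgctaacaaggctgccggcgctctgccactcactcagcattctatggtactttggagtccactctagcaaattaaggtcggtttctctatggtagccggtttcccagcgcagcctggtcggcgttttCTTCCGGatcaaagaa

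The Timm9 stretch covers chr12:71136676-71136847 on the minus strand and the Timm10 stretch chr2:84826771-84827020 on the plus strand (RefSeq, GRCm38.p6), each written in the direction of its gene. Their last bases lie in the first exon as GENCODE vM21 annotates it. The window of Timm9 holds a further E-box across the start of transcription, and that of Timm10 holds an E-box 29 bases past it and ETS cores 14 and 17 bases past it, none of them marked here.

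Timm9 (chr12:71123173-71136684, minus strand) had 65.3, 46.5, 57.8 and 45.7 CPM in untreated BR7, BR8, BR9 and BR10 and 22.0, 45.4, 45.2 and 41.6 CPM with Bch. Every mouse of this set was lower with Bch and BR7 by far the most, at -1.53 on the log2 scale, and the lowest untreated value, 45.7 CPM, lay just above the highest with Bch, 45.4 CPM. In BR1, BR2, BR3 and BR4 it had 38.8, 33.4, 57.7 and 39.1 CPM untreated and 42.1, 42.4, 42.0 and 60.8 CPM with Bch, higher in 3 mice and lower in BR3. The log2 change was -0.43 ± 0.20 (SE) in BR7-BR10, with an adjusted p of 0.999 in edgeR, and -0.17 without BR7. In BR1-BR4 the log2 change was 0.21 ± 0.18, and the difference between the sets was -0.63 ± 0.28 with an adjusted p of 1. Counts of Timm9 were low, and the sum of BR7 with Bch was the shallowest of its set with 1066102 UMIs.

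Timm10 (chr2:84826997-84830213, plus strand) had 87.1, 77.6, 90.8 and 93.1 CPM in untreated BR7, BR8, BR9 and BR10 and 52.3, 66.8, 63.5 and 91.3 CPM with Bch. All 4 mice were lower, BR10 by no more than 0.03 on the log2 scale, and the groups overlapped through BR10. In BR1, BR2, BR3 and BR4 it had 85.8, 63.4, 69.9 and 82.3 CPM untreated and 91.5, 83.2, 91.5 and 86.6 CPM with Bch, so that all 4 mice were higher and the lowest treated value lay below the highest untreated one. The log2 changes were -0.35 ± 0.16 (SE) and 0.22 ± 0.13, with adjusted p-values of 0.999 and 0.757 in edgeR. Their difference of -0.56 ± 0.20 had an adjusted p of 1, and Timm10 was the only member with opposite signs in all mice of the 2 sets.

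The other small TIM genes had smaller log2 changes. Timm10b, which joins the hexamer at TIM22, had 198, 183, 182 and 158 CPM untreated and 165, 152, 163 and 204 CPM with Bch in BR7 to BR10. In BR1 to BR4 it had 131, 146, 131 and 124 CPM untreated and 127, 127, 136 and 145 CPM with Bch. Timm10b was lower in 3 of 4 and in 2 of 4 mice, and its level was higher in every untreated BR7-BR10 mouse than in any untreated BR1-BR4 mouse. Timm8b and Timm13, partners in a second hexamer, had log2 changes of -0.09 ± 0.14 and -0.04 ± 0.14 (SE) in BR7-BR10. Timm8a1 varied between 8.37 and 25.7 CPM over all 16 sums, too low for a firm value.

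No subunit of the inner membrane channels had an unadjusted p under 0.05 in either set. Timm23 (chr14:32180162-32201898, minus strand) had 42.3, 47.7, 44.6 and 46.0 CPM untreated and 43.9, 43.6, 39.4 and 37.7 CPM with Bch in BR7 to BR10. In BR1 to BR4 it had 43.8, 40.6, 36.7 and 42.7 CPM untreated and 45.1, 43.5, 51.0 and 37.6 CPM with Bch. The log2 changes of -0.15 ± 0.18 and 0.08 ± 0.17 (SE) were within their errors. All 5 TIM23 complex genes were below 0 in BR7-BR10, with a median log2 change of -0.10, and 3 of 5 were in BR1-BR4. Timm17a, a channel subunit that is turned over quickly under stress, had 283, 276, 332 and 268 CPM untreated and 378, 222, 224 and 297 CPM with Bch in BR7 to BR10. Its levels in BR1 to BR4 were 245, 285, 339 and 217 CPM untreated and 225, 244, 255 and 217 CPM with Bch. It was lower in all 4 BR1-BR4 mice, BR4 with a log2 ratio of -0.00, and a change of -0.18 ± 0.10 (SE) and an adjusted p of 0.695 in edgeR. In BR7-BR10 it split, with BR7 and BR10 higher and BR8 and BR9 lower. Timm50, the receptor of the complex, had log2 changes of -0.10 ± 0.13 and -0.04 ± 0.09, the channel subunit Timm17b -0.10 ± 0.14 and -0.05 ± 0.11, and Timm21, which links TIM23 to TOM, -0.08 ± 0.20 and 0.06 ± 0.18. Timm22, the carrier channel, had -0.04 ± 0.17 and -0.25 ± 0.16.

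The import motor was below 0 for all 6 genes in BR1-BR4, with a median log2 change of -0.07, and for 3 of 6 in BR7-BR10. The member farthest from 0 was Dnajc15 with -0.14 ± 0.15 (SE) in BR7-BR10. Hspa9, the motor's Hsp70 (chr18:34937414-34954357, minus strand), had 127, 137, 112 and 152 CPM untreated and 109, 137, 160.1 and 129 CPM with Bch in BR7 to BR10. Its levels in BR1 to BR4 were 174, 172, 171 and 185 CPM untreated and 156, 175, 161 and 188 CPM with Bch. Hspa9 was higher in BR9 and lower in BR7 and BR10, and no direction was shared within either set. Dnajc15, a J protein of the motor, was lower in BR7, BR8 and BR9 and higher in BR10, by 0.59 on the log2 scale. Its relative Dnajc19 had log2 changes of -0.07 ± 0.14 and -0.06 ± 0.10 in the 2 sets, the exchange factor Grpel1 -0.03 ± 0.14 and -0.04 ± 0.09, and the tether Timm44 0.04 ± 0.15 and -0.08 ± 0.11. Pam16, a regulator of the motor with uncertain counts, had 0.09 ± 0.17 and -0.12 ± 0.16.

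The subunits of the processing peptidase, which removes presequences, had different signs in several mice. Pmpcb, the catalytic subunit, had 83.9, 101, 116 and 85.6 CPM untreated and 67.0, 77.5, 106 and 95.1 CPM with Bch in BR7 to BR10. In BR1 to BR4 it had 90.3, 82.4, 90.9 and 104 CPM untreated and 99.3, 98.3, 109 and 128 CPM with Bch. Pmpcb was higher in all 4 BR1-BR4 mice, with a log2 change of 0.24 ± 0.12 (SE) and an adjusted p of 0.673 in edgeR, the smallest of the members there. Pmpca, which binds the presequence, had 87.7, 77.0, 101 and 113 CPM untreated and 105, 77.5, 91.3 and 59.6 CPM with Bch in BR7 to BR10. In BR1 to BR4 it had 96.3, 97.5, 76.9 and 56.9 CPM untreated and 87.2, 71.5, 63.5 and 64.8 CPM with Bch. It was lower in 3 of 4 BR1-BR4 mice and higher in BR4, and BR10 had the largest decrease, at -0.92. Over 8 mice its log2 change was -0.20 ± 0.11, and -0.09 without BR10.

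Hspd1 (Hsp60) and Hspe1 (Hsp10) form the matrix chaperonin and are transcribed away from each other on chromosome 1. The nearer annotated start of Hspd1 and the start of Hspe1 lie 215 bases apart. A site between them is shown because it holds the heat shock element GAANNTTC, in capitals together with the ETS core that overlaps it, from 92 to 63 bases before the start of Hspe1.

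Hspd1-Hspe1: ccgttctaGAACCTTCCGGAAGgccccgcg

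This site is chr1:55088056-55088085 on the plus strand (RefSeq, GRCm38.p6) and lies in an annotated exon of Hspd1, whose farther start is at 55088243. Of all 32851 promoter windows, 7.86% hold this short form of the element.

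Hspd1 (chr1:55077835-55088243, minus strand) had 170.3, 230.4, 198 and 321 CPM in untreated BR7, BR8, BR9 and BR10 and 168, 229, 293 and 210.4 CPM with Bch. Hspe1 (chr1:55088132-55091307, plus strand) had 878, 827, 885 and 813 CPM untreated and 659, 671, 713 and 1089 CPM with Bch in the same mice. In BR9 Hspd1 was higher and Hspe1 lower with Bch, and in BR10 the reverse held, while BR7 and BR8 were lower for Hspe1 with Hspd1 within 0.02 of 0 on the log2 scale. The ratio of Hspe1 to Hspd1 UMIs therefore went from 4.48 to 2.43 in BR9 and from 2.53 to 5.17 in BR10. The level of this ratio is uncertain, since the 3′ end of Hspe1 is shared with other genes. Between technical replicates, the share of UMIs in replicate 2 over replicate 1 was 1.10-fold for Hspe1 and 0.989-fold for Hspd1.

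In BR1, BR2, BR3 and BR4, Hspd1 had 304, 245, 206 and 247 CPM untreated and 301, 295, 224 and 266 CPM with Bch. Hspe1 had 654, 531, 584 and 710.4 CPM untreated and 589, 658, 695 and 693 CPM with Bch. Both genes were higher in BR2 and BR3, and the ratio of Hspe1 to Hspd1 stayed between 1.95 and 3.10 in the 8 sums of this set. The log2 changes of Hspd1 were -0.02 ± 0.15 (SE) and 0.12 ± 0.09 in the 2 sets, and those of Hspe1 were -0.15 ± 0.15 and 0.09 ± 0.09.

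The SAM complex inserts barrel proteins into the outer membrane. Mtx2, one of its metaxins (chr2:74825803-74878431, plus strand), was lower with Bch in each mouse of BR7-BR10 with log2 ratios of -0.37 to -0.18. Its upstream stretch, chr2:74825562-74825811 on the plus strand (RefSeq, GRCm38.p6), is shown with the GC box GGGCGG and the ETS core CCGGAAG in capitals.

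Mtx2: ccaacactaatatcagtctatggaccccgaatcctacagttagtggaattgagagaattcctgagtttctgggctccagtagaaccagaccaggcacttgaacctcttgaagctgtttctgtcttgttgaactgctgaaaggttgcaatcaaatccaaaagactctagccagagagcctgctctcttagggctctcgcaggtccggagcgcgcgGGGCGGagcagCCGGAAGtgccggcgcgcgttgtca

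Mtx2 had 201, 189, 207 and 195 CPM in untreated BR7, BR8, BR9 and BR10 and 155, 167, 161 and 165 CPM with Bch. The treated and untreated groups did not overlap, with means of 198 ± 7.66 (SD, n = 4) and 162 ± 5.35 CPM. In BR1, BR2, BR3 and BR4 it had 190.2, 171, 192 and 200.1 CPM untreated and 179, 193, 207 and 217 CPM with Bch, lower in BR1 and higher in the other three. The log2 changes were -0.28 ± 0.14 (SE) and 0.08 ± 0.10, with adjusted p-values of 0.999 and 0.928 in edgeR, and their difference of -0.36 ± 0.16 had an adjusted p of 1. Its partner Mtx1 had log2 changes of 0.04 ± 0.15 and -0.08 ± 0.13, and the barrel Samm50 had -0.22 ± 0.14 and -0.01 ± 0.10.

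The disulfide relay oxidizes small proteins of the intermembrane space, small TIM chaperones among them. Chchd4 (Mia40), the receptor of the relay, had 110.1, 103, 99.9 and 97.1 CPM untreated and 83.7, 86.9, 92.1 and 107 CPM with Bch in BR7 to BR10. Its levels in BR1 to BR4 were 99.0, 89.0, 101 and 95.5 CPM untreated and 69.8, 82.4, 90.0 and 87.1 CPM with Bch. Chchd4 was lower in 7 of 8 mice, and BR10 was the exception. The log2 change over 8 mice was -0.18 ± 0.09 (SE), the member nearest to the threshold in that fit, with an adjusted p of 0.906 in edgeR. Gfer, the oxidase that recharges Chchd4, had log2 changes of -0.13 ± 0.14 and 0.05 ± 0.11 in the 2 sets, and Timmdc1, a complex I assembly factor, had 0.05 ± 0.22 and -0.17 ± 0.20.

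The untreated cells were also compared between the 2 sets, in which the same untreated sums enter as in the Bch comparisons. Of 36 members, 26 were higher in BR7-BR10, against 47.9% of 9159 genes, with a median log2 difference of 0.09 against -0.02. No member passed in edgeR, where 1.64% of all genes did, whereas DESeq2 called 1, Hspe1, with an adjusted p of 0.015, and 187 (2.04%) of all 9159 genes, so that 1 of 36 members is near the background. At an unadjusted p under 0.05 there were 8 members, against 12.7% of all genes, and 7 of them were higher in BR7-BR10, against 6.66%. For 5 members the 4 mice of one set did not overlap with the 4 of the other, against 8.04% of all genes. Tomm7, Hspe1, Grpel1 and Timm10b were higher in BR7-BR10 and Hspa9 was lower.

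Hspe1 averaged 851 ± 36.5 CPM (SD, n = 4) in untreated BR7-BR10 and 619.7 ± 78.6 CPM in untreated BR1-BR4, a log2 difference of 0.44 ± 0.12 (SE) with an adjusted p of 0.0526 in edgeR. Timm10b averaged 180.3 ± 16.4 and 133 ± 9.25 CPM, with an adjusted p of 0.0904. Hspa9 averaged 132 ± 17.1 and 176 ± 6.58 CPM, with an adjusted p of 0.0938 and a log2 difference of -0.42 ± 0.13. For Hspd1 the log2 difference was -0.14 ± 0.16. All 6 small TIM genes and 6 of 7 TOM genes were higher in BR7-BR10, with median log2 differences of 0.29 and 0.32. In the same comparison, 75 of 80 nuclear respiratory chain genes (10 past the threshold, median log2 difference 0.21) and 57 of 77 mitochondrial ribosomal protein genes (3 past the threshold, median 0.09) were higher in BR7-BR10. Other lists lay on the opposite side, with 7 of 10 matrix and inner membrane proteases (median -0.18) and 8 of 12 stress and biogenesis regulators (2 past the threshold, median -0.09) lower in BR7-BR10. Of mitochondrially encoded genes, 5 of 8 were lower with a median of -0.02, near all genes with 52.1% lower and a median of -0.02. In the same untreated sums, 6 of 6 colonocyte, 7 of 8 goblet and 5 of 6 enteroendocrine markers tested were higher and 6 of 8 stem markers were lower in BR7-BR10, with 1, 0, 0 and 2 past the threshold. The medians of these log2 differences were 0.85, 0.48, 0.59 and -0.42. Summed colonocyte markers ranged from 953 to 1801 CPM in BR7-BR10 and from 834 to 1341 CPM in BR1-BR4, enteroendocrine markers from 371 to 954 and from 196 to 421 CPM, stem markers from 751 to 807 and from 875 to 1055 CPM, and goblet markers from 3472 to 9002 and from 4370 to 6725 CPM. The part of these markers in the levels of the import genes was not tested.

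Partner proteins were compared by the correlation of their log2 ratios over the 8 mice, for 8 pairs, with exact two-sided permutation tests and Benjamini-Hochberg adjustment over the 8 pairs. No pair passed. Timm9 and Timm10 had the highest value, with a Pearson r of 0.67 (exact permutation p = 0.0623, adjusted p = 0.409) and a Spearman rho of 0.52 (exact permutation p = 0.197, adjusted p = 0.685). Without BR7 and BR4, the mice farthest from the median of Timm9, r was 0.33. It was 0.27 without BR7 alone and 0.70 without BR4 alone, so the relation rested on BR7. The permutations exchanged mice across both sets, so differences between the sets also enter r and its p-value. Hspa9 and its exchange factor Grpel1 had the same sign in 2 of 8 mice and a negative correlation that did not pass. The values were r = -0.60 (exact permutation p = 0.12, adjusted p = 0.409) and rho = -0.71 (exact permutation p = 0.0576, adjusted p = 0.461), and r = -0.70 without BR9 and BR10. Hspd1 and Hspe1 had r = -0.41 (exact permutation p = 0.342, adjusted p = 0.455) and rho = -0.05 (exact permutation p = 0.935, adjusted p = 0.935). Without BR10 and BR9, the mice farthest from the median of Hspd1, r was 0.89, but these are also mice in which the partners had opposite signs, and r was 0.10 without BR10 alone and -0.26 without BR9 alone.

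The remaining 5 pairs had r between -0.53 for Chchd4 with Gfer and 0.04 for Timm8b with Timm13, and adjusted exact permutation p-values of 0.409 to 0.927. Without the 2 farthest mice, r was 0.65 for Chchd4 with Gfer (-0.035 without BR10 alone). It went from -0.50 over 8 mice to 0.14 for Mtx1 with Mtx2 without BR3 and BR2, from -0.43 to -0.25 for Pmpca with Pmpcb without BR10 and BR7, and from -0.21 to -0.79 for Timm17a with Timm23 without BR7 and BR9. For Timm8b with Timm13, r went from 0.04 to -0.05 without BR10 and BR9. Values within a set were not computed, since each holds 4 mice.

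**Figure D3:**
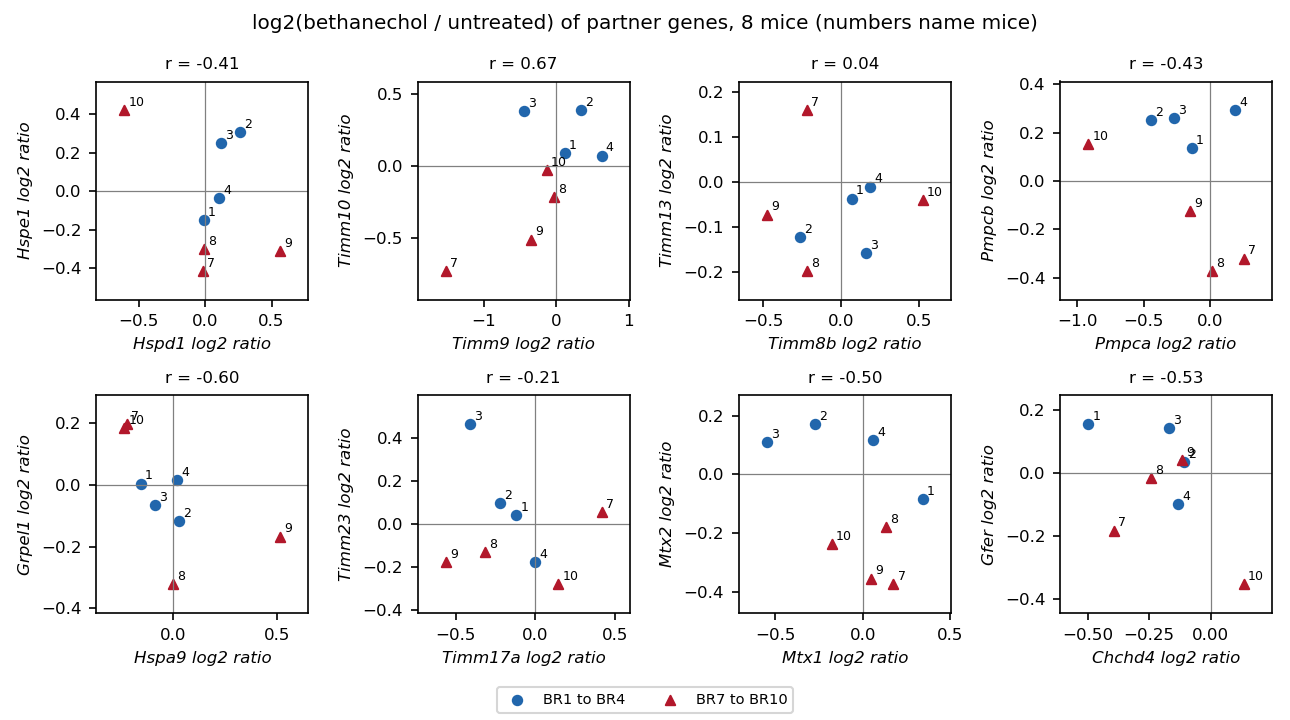
log2 ratio of Bch over untreated of 8 pairs of partner genes, 1 point per mouse, with circles for BR1 to BR4 and triangles for BR7 to BR10 and Pearson's r over 8 mice above each plot. Timm9 and Timm10 have r = 0.67 with BR7 at the lower left, and BR9 and BR10 lie at opposite corners for Hspd1 and Hspe1.

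Mouse BR10 often had the opposite sign from the other three of its set. Of 36 members, 10 were lower with Bch in BR7, BR8 and BR9 and higher in BR10, against 8.35% of all genes, a pattern picked after its values were seen. They were Timm8b, Timm10b, Tomm5, Tomm7, Tomm20, Tomm22, Dnajc15, Hspe1, Chchd4 and Pmpcb. The reverse, higher in BR7, BR8 and BR9 and lower in BR10, held for 2 members, Tomm70a and Mtx1, and was not counted over all genes. Over 5054 genes of at least 20 CPM, the Spearman correlation of the log2 ratio with transcript length was 0.12, 0.28, 0.28 and -0.23 in BR7, BR8, BR9 and BR10 and -0.22, -0.07, -0.11 and 0.12 in BR1, BR2, BR3 and BR4, a description across genes, which share libraries and are not replicates. For 718 genes with a principal transcript of up to 1000 bases the median log2 ratio was -0.09 in BR7, -0.14 in BR8, -0.15 in BR9 and 0.31 in BR10. For 1510 genes over 3000 bases it was 0.04, 0.05, 0.11 and -0.07.

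The 8 members of up to 1000 bases had medians of -0.24, -0.15, -0.34 and 0.24 in BR7, BR8, BR9 and BR10, on the same side of 0 as all short genes. All members were kept here, also Tomm6 and Timm8a1 below 20 CPM, and without Tomm6 the short members had medians of -0.22, -0.22, -0.35 and 0.28. The 8 short members had medians of 0.07, 0.19, -0.10 and -0.07 in BR1, BR2, BR3 and BR4, against 0.12, 0.04, 0.10 and -0.04 for all short genes, on the opposite side in BR3. The 10 members over 3000 bases had medians of -0.13, -0.27, -0.15 and 0.14, on the opposite side from all long genes in each of the 4 mice. The long members of BR1, BR2, BR3 and BR4 had -0.07, -0.11, -0.08 and 0.02, on the same side as all long genes with -0.06, -0.04, -0.07 and 0.04. In untreated cells, all genes of up to 1000 bases were higher in BR7-BR10 than in BR1-BR4 by a median log2 difference of 0.22 and members by 0.34, whereas over 3000 bases these medians were -0.09 and 0.11. The part of transcript length in the log2 changes of the members was not tested.

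**Figure D4:**
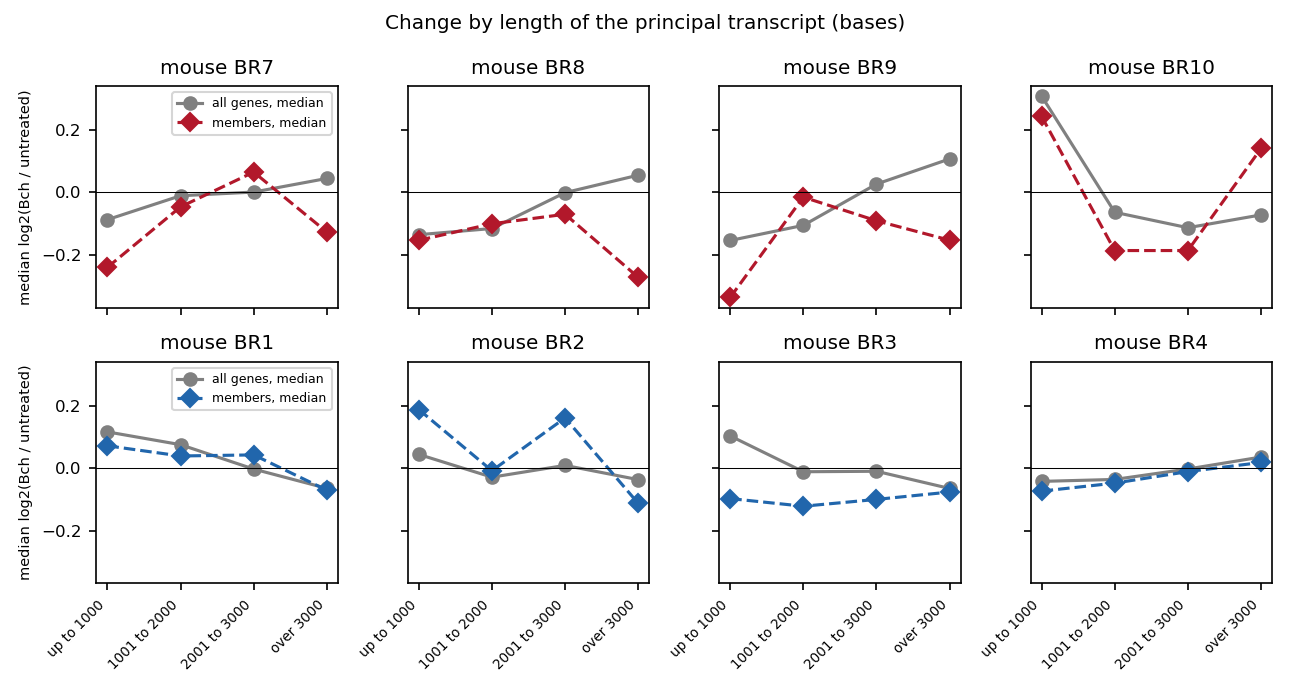
Median log2 ratio of Bch over untreated in each mouse, by length of the principal transcript in bases, for all genes of at least 20 CPM (grey circles) and for all 36 members (diamonds). Short genes lie below 0 in BR7, BR8 and BR9 and at 0.31 in BR10, and members over 3000 bases lie at -0.27 in BR8, where all genes of that length lie at 0.05.

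Other genes of the import pathway, which are no members, were mostly below 0 in BR7-BR10 as well. Of 25 further import, sorting and assembly genes tested, 20 were below 0 there with a median log2 change of -0.13, and 8 of 25 were below 0 in BR1-BR4 with a median of 0.06. None passed in either set. Pitrm1, the protease that clears presequences, had -0.58 ± 0.24 (SE) in BR7-BR10 and was lower in 4 of 4 mice, and -0.23 ± 0.19 in BR1-BR4. Immp2l, a subunit of the inner membrane peptidase, had -0.43 ± 0.19 and 0.01 ± 0.16, and the insertase Oxa1l had -0.19 ± 0.16 and 0.26 ± 0.13. Adjusted p-values in edgeR were 0.999 in BR7-BR10 and between 0.671 and 0.994 in BR1-BR4.

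Of 10 matrix and inner membrane proteases, 6 were below 0 in each set and none passed. Spg7 had -0.20 ± 0.21 (SE) and 0.27 ± 0.21, Lonp1 0.22 ± 0.20 and 0.20 ± 0.16, and Afg3l2 -0.22 ± 0.18 and -0.06 ± 0.16. Stress and biogenesis regulators, the genes that adjust mitochondrial content and the mitochondrial unfolded protein response, were below 0 for 6 of 13 in BR7-BR10 and 6 of 12 in BR1-BR4, and none passed. Among them Ppargc1b, a coactivator of mitochondrial biogenesis, had 0.35 ± 0.37 and -1.08 ± 0.45, its partner Esrra -0.15 ± 0.17 and -0.33 ± 0.16, and the stress factor Atf4 0.15 ± 0.14 and 0.21 ± 0.11. Of the cytosolic chaperones that keep precursors unfolded, 4 of 9 and 3 of 8 were below 0 and none passed. Hspa8 had -0.03 ± 0.14 and 0.32 ± 0.10 with an adjusted p of 0.237 in BR1-BR4, Hsph1 0.47 ± 0.25 and -0.01 ± 0.24, and Hsp90aa1 0.15 ± 0.15 and 0.19 ± 0.11.

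The proteins that the machinery imports, or that are made inside the organelle, were counted for comparison. In BR7-BR10, 69 of 80 nuclear respiratory chain genes and 67 of 77 mitochondrial ribosomal protein genes were below 0, with median log2 changes of -0.06 and -0.09, and none passed. In BR1-BR4 these counts were 51 of 80 and 44 of 77, with medians of -0.03 and -0.02. Of 8 mitochondrially encoded protein genes, 5 were below 0 in BR7-BR10 and 0 in BR1-BR4, with medians of -0.05 and 0.21, and none passed. Their medians by mouse ranged from -0.62 in BR9 to 0.63 in BR10. The members were narrower, from -0.13 in BR8 to 0.04 in BR2, and in BR10 their median of -0.06 and that of the other import genes of -0.13 lay below 0, whereas the respiratory chain was at 0.29 and the mitochondrial ribosome at 0.08.

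**Figure D5:**
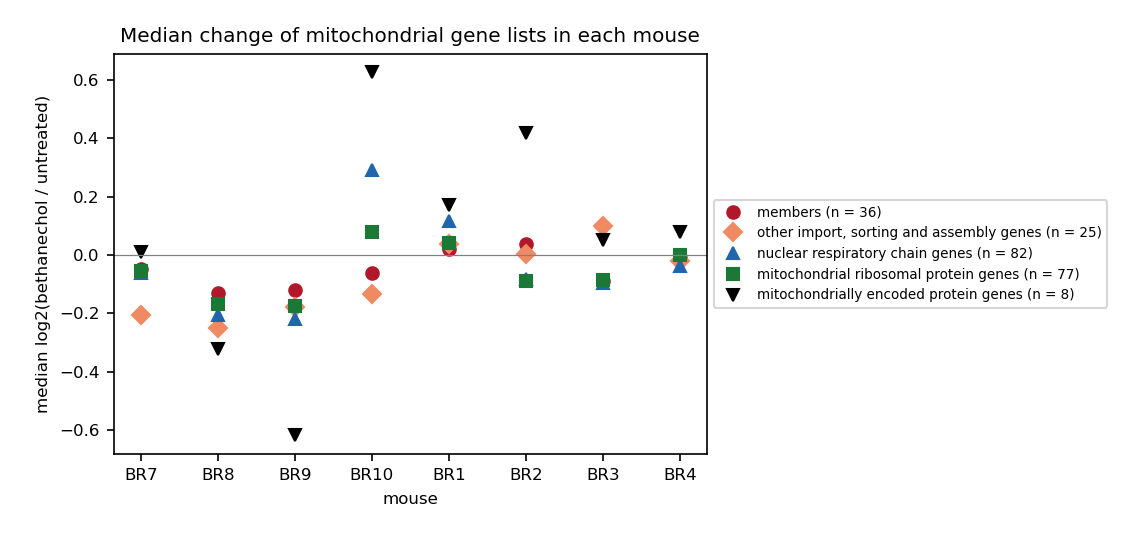
Median log2 ratio of Bch over untreated in each mouse for the members and 4 further lists of mitochondrial genes, 1 symbol per list. In BR10 the mitochondrially encoded genes lie at 0.63 and the respiratory chain at 0.29, while the members lie at -0.06.

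RefSeq promoter windows, 250 bases before to 50 after a start of transcription on GRCm38.p6, were matched by symbol for 33 of 36 members, which have 36 windows. Timm21, Tomm7 and Hspa9 had none. Exact letters were searched on both strands, as a description of sequence and not of binding. The ETS core CCGGAAG, bound by GABPA and other ETS factors, was found in 16 of 36 member windows (44.4%) and in 8.86% of all 32851 windows, which include those of noncoding genes. The GC box GGGCGG was found in 24 windows (66.7%) against 35.7%, the NRF1 core GCGCANGC in 7 (19.4%) against 9.95%, the YY1 core ATGGCGG in 7 (19.4%) against 4.05% and the E-box CACGTG in 5 (13.9%) against 7.15%. Overlapping windows count a site more than once, as for the ETS core and GC box of Hspd1 with Hspe1 and of Tomm34. By gene, 15 of 33 members held the ETS core and 22 the GC box. The heat shock element was found in 3 windows (8.33%) against 7.86%, those of Timm9, Hspd1 and Hspe1, the latter pair through the same site, and CCAAT in 10 windows (27.8%) against 37.4%. The ERR element TCAAGGTCA was found for Timm8b alone (2.78%) against 0.423%, and neither the CRE letters TGACGTCA nor the CHOP and ATF4 composite TGATGCAA were found in the member windows, against 1.79% and 0.895% of all windows. The ETS core was held both by genes that were lower in BR7-BR10, such as Timm10 and Mtx2, and by Tomm70a, which was higher in 3 of 4 mice.

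Markers of other cell types were counted in the same sums. In BR7-BR10, 7 of 8 goblet markers and 4 of 6 colonocyte markers tested were above 0 with Bch and none passed, with median log2 changes of 0.22 and 0.15. Summed goblet markers had a median of 6738 CPM untreated (3472 to 9002) and of 5921 CPM with Bch (5169.6 to 13958), so the sums gave no common direction. In BR1-BR4, 4 of 7 goblet markers and 2 of 5 colonocyte markers tested were above 0, with median log2 changes of 0.01 and -0.17, and none passed. Stem markers lay on both sides of 0, with 4 of 8 above and 4 of 8 below in each set and median log2 changes of 0.00 in both. Lgr5 went from 26.3 to 27.2, from 18.5 to 30.7, from 20.8 to 28.2 and from 12.4 to 19.7 CPM in BR7, BR8, BR9 and BR10. In BR1, BR2, BR3 and BR4 it went from 35.6 to 18.0, from 38.6 to 15.9, from 34.9 to 26.5 and from 28.9 to 29.2 CPM. Cycling markers were below 0 for 8 of 8 genes in BR1-BR4 and 4 of 8 in BR7-BR10, and none passed. Enteroendocrine markers were below 0 for 4 of 6 genes tested in BR7-BR10 and 2 of 6 in BR1-BR4. Tuft markers summed to at most 22.9 CPM, the 4 stromal markers in the table to at most 9.42 CPM, with Lum at 0 in 3 of the 4 groups, and the 6 immune markers to at most 122 CPM, with Cd79a at 0 in 3. The part of these markers in the log2 changes of the import genes was not tested.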

How the data were processed

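Bulk RNA of sorted Lgr5-EGFP+ colonoid cells was measured in 32 libraries, 2 technical replicates of 8 mice, untreated and with Bch. The authors deposited raw UMI counts per gene, made with oligo-dT priming and the Drop-seq pipeline on GRCm38 with GENCODE M25. Whether counting used the strand is not given in the sources used here, so genes that overlap on opposite strands are uncertain. Blank cells of 1520 genes in technical replicate 2 were read as 0. From these counts, technical replicates were summed, giving 557512 to 4050342 UMIs.

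edgeR 4.0.16 (R 4.3.3, filterByExpr, TMM, robust quasi-likelihood test, mouse as block) was fitted over all genes with Benjamini-Hochberg adjustment at 0.05. DESeq2 1.42.0 was an alternative and gave no adjusted p to 31 members in BR1-BR4. Per-mouse log2 ratios used a prior count of 2. Labels pair the cultures by mouse, and deviations from group means correlated between -0.02 and 0.24 within mice. As the replicates are mice, p-values of the Bch fits measure how the change within each mouse varies between animals. Those of the untreated comparison measure the spread of levels between animals. Values in every mouse are given for 8 genes named by role (Timm9, Timm10, Hspd1, Hspe1, Hspa9, Tomm20, Tomm40, Timm23) and for the 3 members with the smallest p in each fit, and up to 3 genes are named per further list. The members and lists were chosen with earlier results of these data known. Gene positions and transcript lengths are from GENCODE vM21 (GRCm38), and a 3′ end is the last 500 bases of a transcript. The fits were tested on simulated data.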

Additional observations from a re-analysis of the deposited data

Results flagged for a closer look

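Among 72 groups of 4 per-mouse log2 ratios (36 members in 2 sets), Dixon's test at 95% marked a mouse far from the other three in 5, where chance alone marks about 1 in 20 groups. Tomm20 was at 0.80 in BR10, with the other mice between -0.42 and -0.25. Hspe1 was at 0.42 in BR10, with the others between -0.41 and -0.30. Timm21, a regulator of the TIM23 complex, was at -0.81 in BR9 (others between 0.15 and 0.21) and at -0.40 in BR3 (others between 0.14 and 0.21). Chchd4 was at -0.50 in BR1, with the others between -0.17 and -0.11. Timm10 was lower with Bch in 4 of 4 BR7-BR10 mice and higher in 4 of 4 BR1-BR4 mice, and the difference of -0.56 did not pass in edgeR (adjusted p = 1).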

How the results depend on the processing

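No member passed under any alternative in the 4 Bch fits: DESeq2, its size factors in edgeR, no filter, either technical replicate alone, leaving out each mouse, no replicate block (0 members in each, and 0% to 0.41% of all genes; DESeq2 gave 31 members of BR1-BR4 no adjusted p) and, chosen after seeing the data, the 31 members without shared 3′ ends. Counts below 0 ranged, leaving out each mouse, from 23 (without BR9) to 27 of the members in BR7-BR10, 18 to 19 in BR1-BR4, 24 to 29 over 8 mice and 18 to 25 for the difference, and by the other alternatives, of 35 or 36 members tested, from 26 to 29, 19 to 20, 24 to 29 and 19 to 22. Of the 31 members without shared ends, 24, 17, 24 and 18 were below 0.

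For untreated levels, members past the threshold were 0 in the main fit, 1 of 36 by DESeq2 and with no filter (Hspe1 in both; 2.04% and 1.09% of all genes), 2 of 35 with technical replicate 1 alone (Hspe1, Hspa9; 1.78% of all genes) and 0 to 4 of 36 leaving out each mouse, with 4 without BR10 (Hspe1, Hspa9, Timm10b, Timm8b; 2.28% of all genes) and 1 without BR4 (Hspe1; 0.872%). The cause was not tested. Adjusted p-values of Hspe1 ranged from 0.015 (DESeq2) to 0.27 (without BR2). Members higher in BR7-BR10 ranged from 23 to 26 of 35 or 36, and were 22 of the 31 without shared ends.

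Leaving out each mouse, the BR7-BR10 log2 change of Timm9 ranged from -0.58 to -0.17 (without BR7), that of Timm10 from -0.46 to -0.24, and the difference of Timm9 between sets from -0.78 to -0.38 (without BR7). No pair correlation passed under any alternative. Leaving out each mouse, r ranged from -0.60 to 0.10 (without BR10) for Hspd1 with Hspe1, from -0.45 to 0.15 (without BR3) for Timm17a with Timm23, from 0.27 (without BR7) to 0.86 for Timm9 with Timm10, from -0.69 (without BR4) to -0.24 (without BR7) for Pmpca with Pmpcb, from -0.80 to -0.035 (without BR10) for Chchd4 with Gfer, and from -0.095 to 0.41 for Timm8b with Timm13, below 0 without BR2 (-0.03), BR4 (-0.01), BR8 (-0.095) or BR10 (-0.01). Log2 changes shrank over 1.5 times for Timm17a in BR1-BR4 without BR3 (-0.11) and with technical replicate 1 alone (-0.11), for Chchd4 in BR1-BR4 without BR1 (-0.13), for Pmpca over 8 mice without BR10 (-0.09) and for Tomm70a over 8 mice without BR9 (0.11). The distance between the medians of members and of all genes moved over 1.5 times in BR1-BR4 (-0.04 to between -0.07 and -0.01), in BR7-BR10 with technical replicate 2 alone (-0.09 to -0.05), over 8 mice with no filter or without BR10 (-0.04 to -0.07 in both) and for the difference (-0.05 to -0.02 without BR1, without BR8 or with technical replicate 2 alone, and to -0.03 without BR2), and kept its sign. With 4 mice a set, the precision is that of the SEs given.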
